A study of Mus musculus with 26 samples.

Results

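Enzymes that detoxify foreign and reactive compounds, or that keep the redox balance of the cell, were read across 5 exocrine glands of the mouse head in both sexes. The members are the probes whose gene symbol begins with the name of one of these enzyme families: glutathione transferases (Gst, Mgst), glutathione peroxidases (Gpx), peroxiredoxins (Prdx), the thioredoxin system (Txn), UDP-glucuronosyltransferases (Ugt), sulfotransferases (Sult), aldehyde and alcohol dehydrogenases (Aldh, Adh), aldo-keto reductases (Akr), carbonyl and quinone reductases (Cbr, Nqo), aldehyde oxidases (Aox), flavin monooxygenases (Fmo), carboxylesterases (Ces) and epoxide hydrolases (Ephx). Sult1e1 and Adh1 were left aside by the rule. The rule took 95 of the 10500 probes of the array, for 94 of its 8841 genes with a symbol, with 2 probes for Txnrd2. It uses gene names alone and no measured value. Of the 95 probes, 76 reached the 30th percentile of their array on every measured array of at least 1 group and were tested. The other 19 did not meet this in any group and are named further on.

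The arrays held RNA of the submandibular, sublingual and parotid glands (the major salivary glands), the lacrimal gland, source of aqueous tear fluid, and the meibomian gland of the eyelid, whose oil covers the tear film. Each array held a pool of 10 glands from 5 male or 5 female BALB/c mice, an inbred strain, and the labels name no treatment or altered allele. Each sex gave pools A, B and C for the submandibular, lacrimal and meibomian glands (3 arrays a group) and pools A and B for the sublingual and the parotid (2 arrays a group), 26 arrays in all. The age of the mice was not given in the sources used here. Values are linear intensities scaled within each array (array medians 0.928 to 0.955). They have no unit that can be compared between probes, so each test compares a probe only with itself. The sums over marker probes, and the naming of members by the highest levels in a gland, do use levels across probes. They depend on how bright each probe is. In whole glands, fewer cells of a type and less RNA per cell cannot be told apart.

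Detoxification runs in steps. Flavin monooxygenases and aldehyde oxidases oxidise a compound, aldo-keto reductases reduce it and carboxylesterases hydrolyse it, which exposes or alters a reactive group. Transferases then join the product to glutathione, sulfate or glucuronic acid, which makes it soluble, and transporters export the conjugate. Peroxiredoxins, glutathione peroxidases and the thioredoxin system reduce peroxides and oxidised protein thiols, and aldehyde dehydrogenases clear aldehydes that form when membrane lipids are oxidised. Several of these enzymes also act on the body's own substrates, among them retinoids, steroids, prostaglandins and fatty aldehydes. Many of the family genes are known targets of the factor NRF2, which binds the antioxidant response element.

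The core of that element, TGACNNNGC, was searched on both strands in the promoter windows of the members (RefSeq, assembly GRCm38.p6, 250 bases before to 50 after each start). Of the 94 member genes, 80 had a window and 9 of these held the core (11.2%), against 14% of all 27025 genes with a window. Those 9 genes were Akr1cl, Aldh1a2, Aldh9a1, Gsta3, Gstm5, Gstm7, Mgst1, Prdx1 and Txnrd1. The windows of 3 are shown because their genes recur in the gland comparisons that follow, with Gsta3 highest in the lacrimal gland, Mgst1 highest in the meibomian gland and Prdx1 lowest in the parotid gland. Capitals mark the core as it reads on the printed strand, forward in Gsta3 and as its reverse complement in Mgst1 and Prdx1. The first base of the match lies 121, 56 and 133 bases before the start, in that order. The windows are chr1:21240335-21240634, chr6:138140277-138140576 (the first of a pair of Mgst1 windows) and chr4:116685349-116685648, all on the plus strand.
Gsta3: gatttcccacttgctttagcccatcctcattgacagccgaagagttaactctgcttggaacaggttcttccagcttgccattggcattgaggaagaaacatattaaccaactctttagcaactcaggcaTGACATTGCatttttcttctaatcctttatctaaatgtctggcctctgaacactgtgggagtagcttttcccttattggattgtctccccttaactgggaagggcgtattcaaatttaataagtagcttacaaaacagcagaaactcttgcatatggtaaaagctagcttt
Mgst1: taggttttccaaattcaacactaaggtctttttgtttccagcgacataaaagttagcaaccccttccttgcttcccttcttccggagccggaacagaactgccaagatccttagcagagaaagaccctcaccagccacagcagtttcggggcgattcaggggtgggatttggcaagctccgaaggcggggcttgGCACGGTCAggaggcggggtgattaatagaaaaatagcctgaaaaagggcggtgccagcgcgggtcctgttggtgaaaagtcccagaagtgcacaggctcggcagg
Prdx1: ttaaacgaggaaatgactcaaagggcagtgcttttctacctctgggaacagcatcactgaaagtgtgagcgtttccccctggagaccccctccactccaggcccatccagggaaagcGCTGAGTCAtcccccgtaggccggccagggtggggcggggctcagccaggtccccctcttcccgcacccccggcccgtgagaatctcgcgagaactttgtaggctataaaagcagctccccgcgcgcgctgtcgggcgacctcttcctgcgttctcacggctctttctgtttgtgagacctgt
A match describes these letters only. It was not tested whether a factor binds there.

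Some features of the arrays stand beside the results. Pools of the same letter deviated together in males and females of a gland, so each sex difference is also given pair by pair, and a fit with the pool letter as a block stands beside a result where it changes a call. A leading component of the deviations within groups (39.1% of their variance) divided the arrays into 2 sets, with submandibular and lacrimal pools B and sublingual, parotid and meibomian pools A of both sexes in set 1 and the rest in set 2; a pair therefore never crosses the sets, and the pair of set 1 is its within-set value. The lacrimal and meibomian marker lists were each high in their own gland when summed. The 3 lacrimal markers measured summed to 873 to 1328 in lacrimal pools and to at most 314 elsewhere, with Lpo making up most of the latter. The 4 meibomian markers summed to 241 to 355 in meibomian pools and to at most 52.7 elsewhere. Of these, Scd1 was higher in female submandibular pools (38.0) than in meibomian pools (28.3 in females, 27.0 in males), while Elovl3, Elovl4 and Scd3 were highest in the meibomian gland. The 4 submandibular markers measured summed to 369 to 864 in that gland and to at most 368 elsewhere, but Klk1b5 made up most of the sum in female pools, where Smr2 (3.11) was below the parotid level (27.4 in females) and Egf and Klk1b24 (14.5 and 6.14) below the male sublingual ones (49.7 and 33.9). The 1 sublingual marker, Spdef, was highest in its own gland (15.6 to 19.4, at most 13.1 elsewhere), whereas the 2 parotid markers overlapped (306 to 1064 in parotid pools, up to 845 elsewhere). Other cell types were seen as well. The 4 keratinocyte markers summed to 40.0 to 105 in the meibomian pools and to at most 5.85 in the other glands, and the 5 skeletal muscle markers to 101 to 183 in meibomian, 31.5 to 124 in parotid and at most 14.9 in the other pools.

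**Figure D1:**
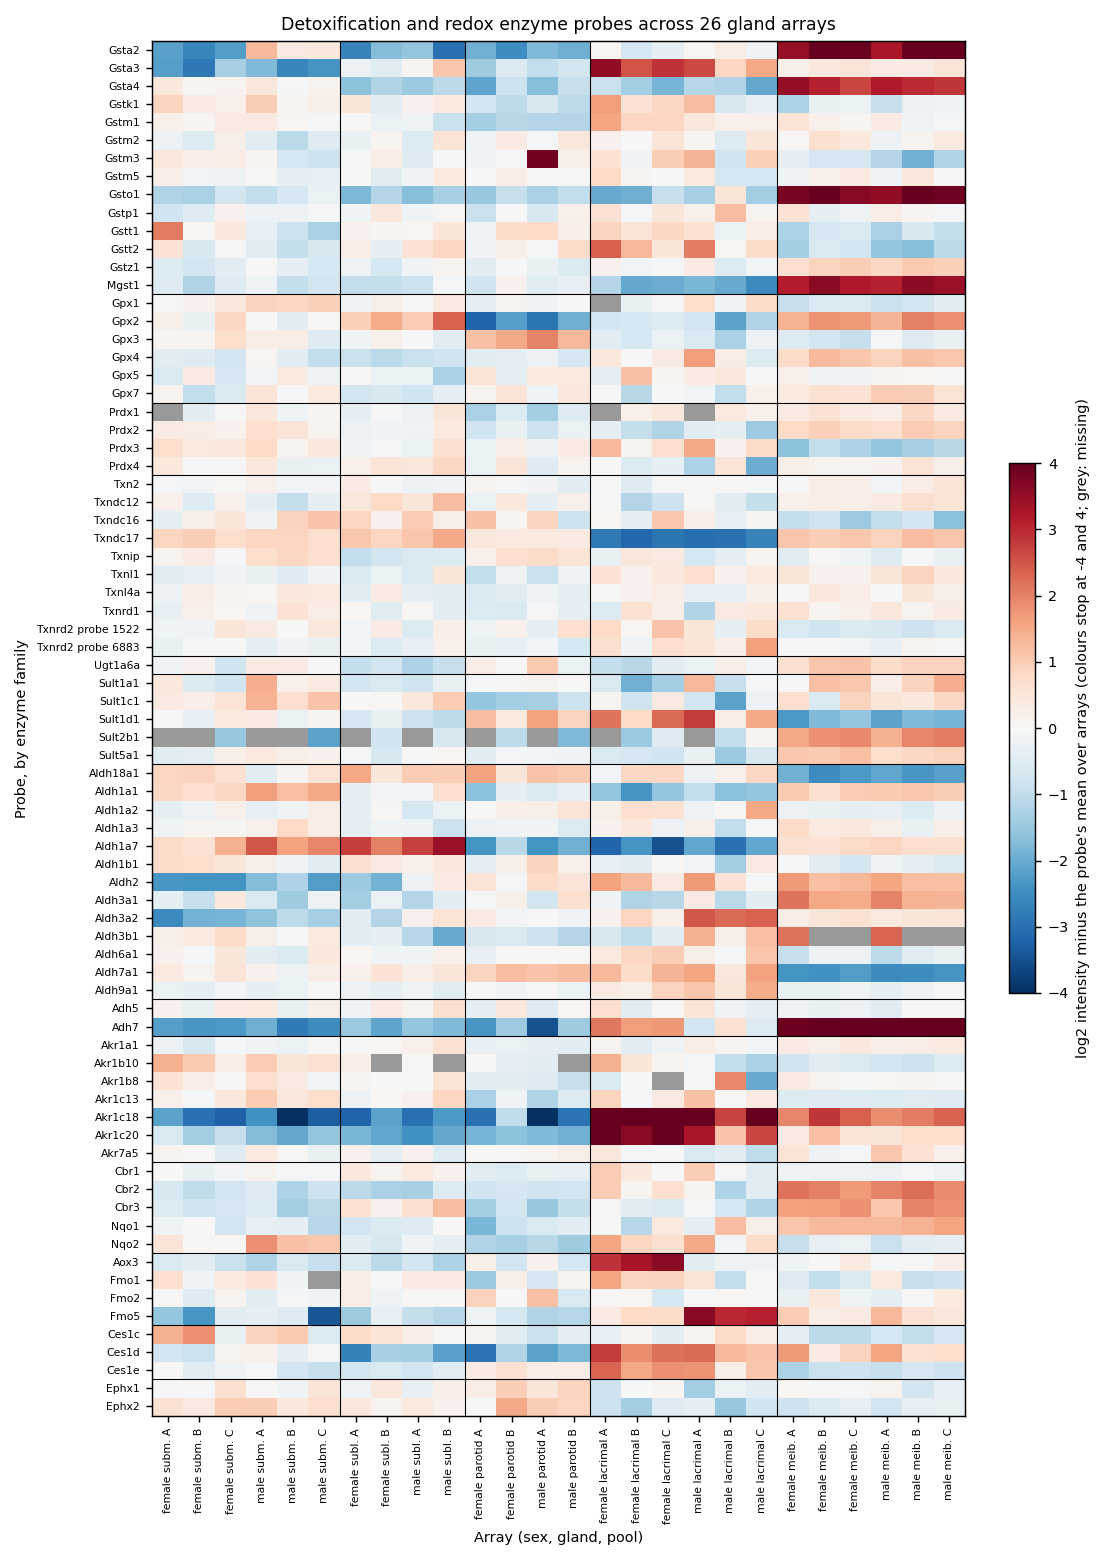
Each row is 1 of the 76 member probes tested, ordered by enzyme family, and each column 1 of the 26 arrays, ordered by gland and sex. Colour gives log2 intensity minus the mean of the probe over all arrays, from -4 (blue) to 4 (red), with missing spots in grey. The meibomian columns are red for Gsto1, Mgst1, Gsta4, Gsta2 and Adh7, and the lacrimal columns for Akr1c18, Akr1c20 and Gsta3 and blue for Txndc17.

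Most members differed between glands. A moderated F test in limma over the 5 gland means called 66 of the 76 (86.8%), against 80.4% of all probes tested, which is close to the background. The gland of the highest level was the meibomian for 30 members, the lacrimal for 26, the sublingual and parotid for 7 each and the submandibular for 6. Over all probes the meibomian gland was highest for 31.5% and the lacrimal for 29.2%, against 39.5% and 34.2% of the members. The other glands held smaller shares of the members than of all probes. These were 9.21% against 15.1% (parotid), 9.21% against 11% (sublingual) and 7.89% against 13.2% (submandibular). Each gland was next set against the mean of the other 4, and a member was called at an adjusted p under 0.05 (limma, Benjamini-Hochberg) with a log2 difference of at least 1. By that rule 47 members were called in at least 1 gland and 29 in none. Adh7, Akr1c18 and Akr1c20 were called in all 5 glands, and Aldh1a7, Ces1d, Gpx2, Gsta4 and Gsto1 in 4. The matching counts over all probes were not computed, so these counts cannot be set against the background.

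**Figure D2:**
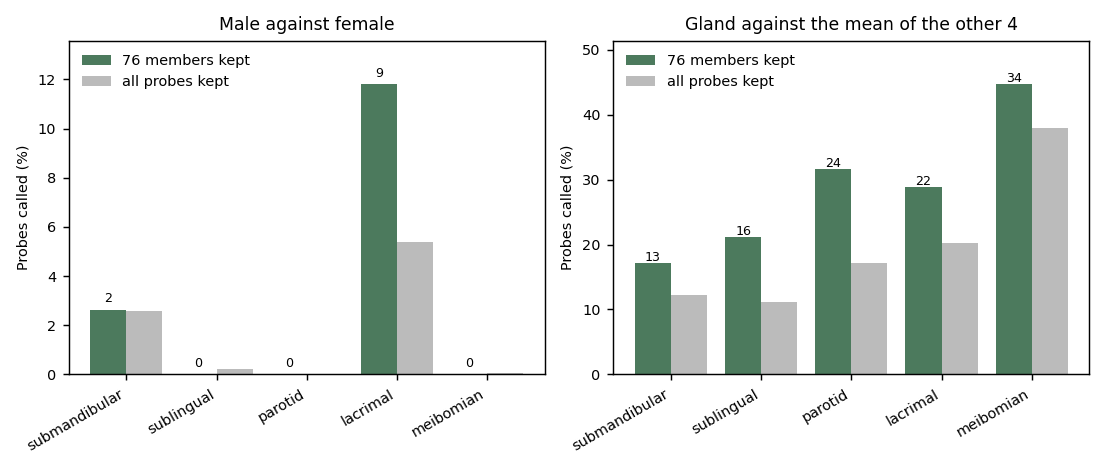
Bars give the percent of probes called, in green for the 76 members and in grey for all probes tested, with the number of members above each green bar. The left plot compares males with females in each gland (adjusted p under 0.05), the right plot each gland with the mean of the other 4 (also a log2 difference of at least 1). The lacrimal bar stands highest on the left (9 members) and the meibomian bar on the right (34 members).

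The meibomian gland held the most members called, 24 higher and 10 lower (44.7% of 76). Over all probes 37.9% were called, 16.9% higher and 21% lower. The median log2 difference over all 76 members was 0.34, against -0.09 over all probes. Of the 14 glutathione transferases tested 5 were higher and 3 lower. Gsto1, the omega-class transferase that also reduces dehydroascorbate, lay between 84.3 and 119 with a median of 105 in the 6 meibomian pools. Its medians were 2.58 (sublingual), 2.85 (lacrimal), 3.31 (parotid) and 4.05 (submandibular), and the highest of those 20 arrays, male lacrimal pool B, reached 10.3. The difference was 5.0 ± 0.23 (SE, log2, adjusted p = 1.78e-13), and the arrays did not overlap.

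Mgst1, a transferase of the endoplasmic reticulum and outer mitochondrial membrane whose window is printed above, lay between 73.7 and 108 in meibomian pools (median 88.1) and at 9.95 or less everywhere else (4.26 ± 0.18, adjusted p = 6.27e-14). Gsta4, which conjugates the lipid peroxidation product 4-hydroxynonenal, had 67.7 to 122 (median 87.1) in meibomian pools and at most 14.6 elsewhere (4.04 ± 0.19, adjusted p = 3.95e-13). Gsta2, another alpha-class transferase, had 5.61 to 9.73 (median 9.33). The salivary groups other than the male submandibular one lay under the 30th percentile of their arrays for Gsta2, so its fold is a lower bound with that percentile in place of the dim values. Gsta2 was at least 19.0-fold higher in the meibomian gland (5.12 ± 0.21 in the fit, adjusted p = 2.05e-14). All 4 transferases were thus set apart from every array of the other glands.

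Transferases did not all follow. Gstt2 (-1.52), Gstm3 (-1.33) and Gstt1 (-1.17) were lower in the meibomian gland, and Gstz1, which acts in tyrosine breakdown, was higher (20.0 against 8.94; 1.16 ± 0.14). Gstm1, Gstm2, Gstm5, Gstp1, Gstk1 and Gsta3 were not called there. The genes of the Gstm cluster are neighbours on chromosome 3 with at most 2 genes between them. By level, Gstm1 was highest in the lacrimal, Gstm3 in the parotid and Gstm2 and Gstm5 in the meibomian gland. The place of Gstm3 rests on male parotid pool A (4.66), as the other parotid pools held 0.284 to 0.377. Meibomian and parotid pools overlapped for Gstm2 (8.10 to 14.9 and 8.48 to 13.1) and for Gstm5 (6.78 to 10.6 and 7.76 to 9.61). Probes for near-identical family members can share signal, and that was not tested here.

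Among the oxidoreductases of the meibomian gland, Adh7, the class IV alcohol dehydrogenase that oxidises retinol in surface epithelia, stood furthest out. It had 9.68 to 12 (median 11.4) in meibomian pools, 0.383 to 2.74 in lacrimal pools and 0.0563 to 0.238 in the 14 salivary pools, where every group was dim. It was at least 24.7-fold higher in the meibomian gland (5.50 ± 0.23, adjusted p = 5.39e-14). Adh5, the other alcohol dehydrogenase tested, was called in no gland. Cbr2, the lung-type carbonyl reductase, had 99.8 to 144 (median 123) in meibomian pools and at most 62.4 elsewhere (2.65 ± 0.18, adjusted p = 5.93e-11). Cbr3 (4.83 against 1.1; 2.13 ± 0.18) and Nqo1, a quinone reductase (at least 3.02-fold; 1.78 ± 0.23), were higher too, while Cbr1 was called nowhere.

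Of the 13 aldehyde dehydrogenases tested, 4 were higher in the meibomian gland and 2 lower. Aldh3a1, the enzyme known as a corneal crystallin, had 25.2 to 43.9 there (median 27.7) against at most 15.2 on the other arrays (2.14 ± 0.26, adjusted p = 5.71e-07). Aldh3b1, which oxidises medium- and long-chain aldehydes, had 38.6 and 43.3 on the only 2 meibomian arrays with a measured spot, the A pools of either sex, and at most 23.0 elsewhere (2.59 ± 0.28). Aldh2 (30.1 against 8.97) and Aldh1a1 (11.3 against 4.68) were higher by 1.75 ± 0.21 and 1.27 ± 0.17. Aldh7a1, which takes part in lysine breakdown, was the lowest member there: 2.77 to 3.51 (median 3.11) against medians of 19.2 to 41.4 in the other glands (-3.13 ± 0.15, adjusted p = 4.94e-13). Aldh18a1, an enzyme of proline synthesis, was at least 6.52-fold lower (-2.94 ± 0.20). No array overlapped for either of the pair.

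Sulfotransferases divided in the meibomian gland. Sult2b1, which sulfates cholesterol and is known from the epidermis, had 1.22 to 1.94 (median 1.70) in the 6 meibomian pools and 0.105 to 0.494 on the 10 other arrays where its spot was measured. It was at least 4.44-fold higher (2.96 ± 0.24, adjusted p = 9.77e-07). Sult5a1 (3.21 against 1.36) and Sult1a1 (4.34 against 2.08) were higher as well. Sult1d1, which acts on catecholamines and other small phenols, was lowest there, with 0.0535 to 0.0906 in all 6 pools, under the dim limit, and at least 1.27-fold lower (-2.39 ± 0.27 in the fit).

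Of the enzymes of peroxide and thiol reduction, 2 of 6 glutathione peroxidases were higher, 1 of 4 peroxiredoxins was higher and 1 lower, and of 10 probes of the thioredoxin system 1 was higher and 1 lower. Gpx2, the glutathione peroxidase known from gut epithelium, was higher in the meibomian gland (13.4 against 2.94; 2.19 ± 0.23) and so was Gpx4, which reduces lipid hydroperoxides in membranes (63.7 against 23.6; 1.43 ± 0.21). Prdx2, a cytosolic peroxiredoxin, had 67.9 to 87.3 (1.11 ± 0.16), and Prdx3, the mitochondrial one, 8.47 to 13.4 against at least 21.8 on every other array (-1.64 ± 0.20, adjusted p = 4.03e-07). Ugt1a6a, the only glucuronosyltransferase tested, was higher (2.44 against 1.07; 1.19 ± 0.17). Akr1c18 (at least 6.12-fold), Akr1c20 (at least 1.45-fold) and Ces1d (7.36 against 2.52) were higher as well, and Ces1e (1.26 against 2.69) was lower. The keratinocyte markers Krt1 and Krt10 (28.4 and 28.7 for Krt10 and Krt1 in females, with Lor at 0.919) and the skeletal muscle markers Acta1 and Pvalb were also high in these pools, and their part in the meibomian results was not tested.

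**Figure D3:**
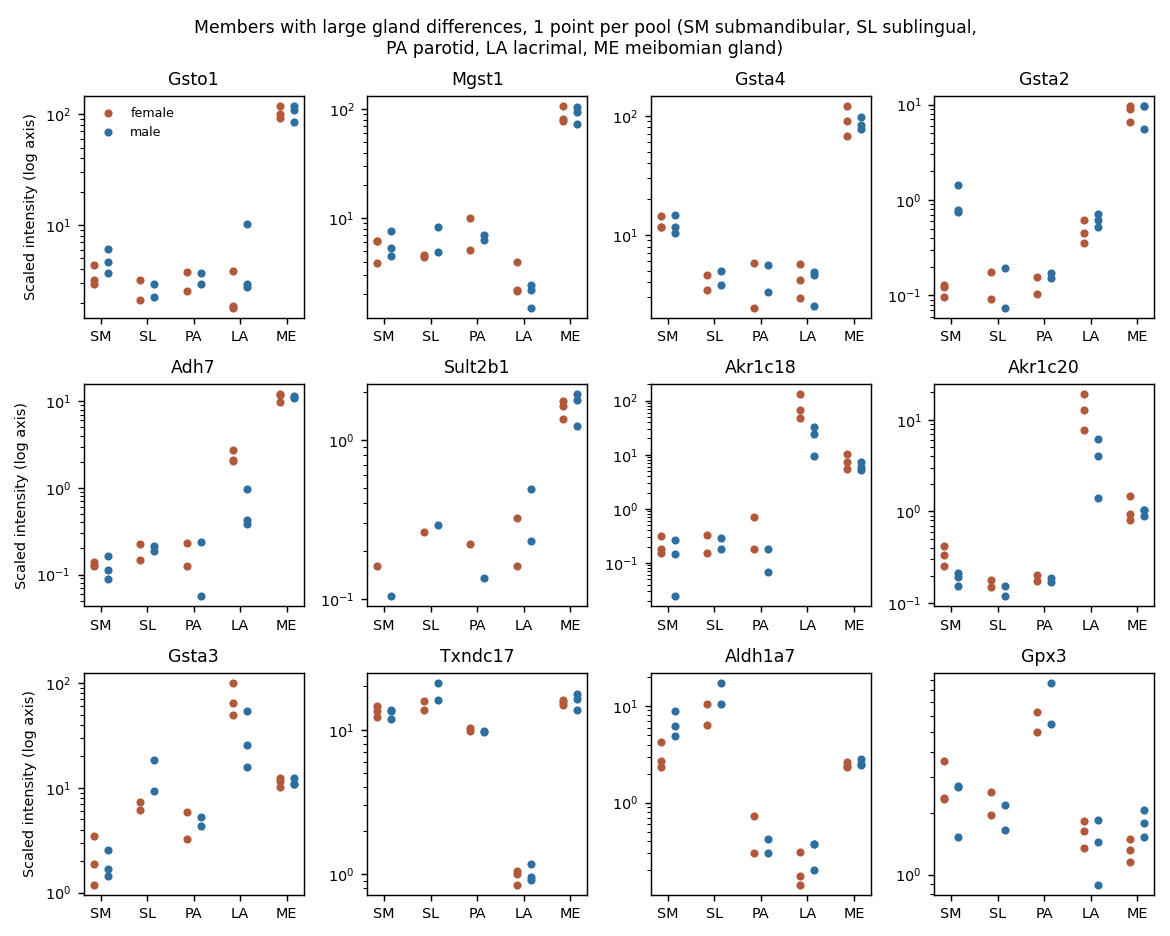
Points give scaled intensity on a log axis for each pool, in brown for females and blue for males, with the 5 glands on the horizontal axis, for 12 members. In the 6 plots from Gsto1 to Sult2b1 the meibomian points lie above all others. In Akr1c18 and Gsta3 the lacrimal points lie highest except male pool B, which falls within the range of another gland. In Txndc17 the 6 lacrimal points lie alone near 1, and in Gpx3 the 4 parotid points lie above the rest.

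In the lacrimal gland 14 members were higher and 8 lower (28.9%, against 20.2% of all probes, 11.7% higher and 8.56% lower). The highest were aldo-keto reductases. Akr1c18, the 20-alpha-hydroxysteroid dehydrogenase that inactivates progesterone, lay at 131, 47.0 and 66.6 in female pools A, B and C and at 32.7, 9.30 and 24.0 in the male pools. The 14 salivary arrays held 0.0244 to 0.709 and the meibomian arrays 5.20 to 10.3, so male pool B fell within the meibomian range. Over both sexes the lacrimal level was at least 53.3-fold above the mean of the other glands (6.38 ± 0.40, adjusted p = 6.53e-11). Akr1c20, a close relative on the same chromosome, had 1.4 to 19.0 in lacrimal pools (median 6.94), 0.802 to 1.48 in meibomian pools and at most 0.421 in the salivary glands (at least 14.4-fold; 4.46 ± 0.23). Akr1c13, the neighbour of Akr1c18, was also highest in the lacrimal gland but was not called.

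Gsta3, an alpha-class transferase, had 15.7 to 101 in lacrimal pools (median 51.7), 10.2 to 12.5 in meibomian pools and 1.19 to 3.46 in submandibular pools (2.98 ± 0.24 for the lacrimal gland, limma adjusted p = 3.45e-09). Its highest value outside the lacrimal gland was 18.5 in a sublingual pool, above the lowest lacrimal one. Among carboxylesterases, which hydrolyse esters and lipids, Ces1d had 8.18 to 26 (median 15.4; 2.74 ± 0.28) and Ces1e 2.74 to 11.8 (median 7.5; 1.86 ± 0.18). Ces1c, their neighbour on chromosome 8, was not called in the lacrimal gland. Aox3 (1.97), Fmo5 (at least 2.72-fold), Aldh3a2 (1.76), Gstt2 (at least 2.26-fold), Sult1d1 (at least 2.39-fold), Nqo2 (1.22), Aldh2 (1.2), Aldh7a1 (1.34) and Adh7 (at least 1.38-fold) made up the rest of the higher members. For Aox3 and Fmo5 the level over both sexes describes neither sex, as given with the sex differences. Aldh3a2 was above all meibomian pools in males alone. Its female lacrimal pools (4.98 to 8.01) overlapped the female meibomian ones (5.39 to 6.75).

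Txndc17, a small cytosolic disulfide reductase of the thioredoxin fold, was the member with the smallest F-test p of all (adjusted p = 1.79e-15). It had 0.848 to 1.18 (median 0.979) in all 6 lacrimal pools and 9.64 to 21.2 on the other 20 arrays, a difference of -3.78 ± 0.11 (adjusted p = 1.36e-16). The other 9 thioredoxin-system probes tested were not called in the lacrimal gland. Aldh1a7, close to the retinal dehydrogenase Aldh1a1 and next to it on chromosome 19, was at least 6.28-fold lower (0.142 to 0.374; -3.43 ± 0.21), and Aldh1a1 itself fell by 1.96 ± 0.17. Mgst1 (-2.33), Gsta4 (-1.54), Gsto1 (-1.26), Ephx2, the soluble epoxide hydrolase of fatty acid epoxides (0.929 against 2.18; -1.23 ± 0.20), and Gpx2 (-1.18) were also lower.

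The parotid gland showed the opposite balance, with 5 members higher and 19 lower (31.6%, against 17.1% of all probes, 8.96% higher and 8.11% lower). The median over members was -0.31, against -0.13 over all probes. Gpx3, the secreted glutathione peroxidase, had 4.97 to 8.69 in the 4 parotid pools (median 5.87) and at most 3.59 on all other arrays (1.76 ± 0.20, adjusted p = 4.78e-07). Aldh7a1 (35.8 against 14.6; 1.29 ± 0.18), Sult1d1 (at least 1.4-fold; 1.26 ± 0.31) and Aldh18a1 (at least 2.16-fold) were higher too. Gstm3 completed the 5 with 0.627 against 0.285, but its male parotid pool A held 4.66 and the other 3 parotid pools 0.284, 0.309 and 0.377. Skeletal muscle markers (31.5 to 124) and adipocyte markers (3 measured, 99.2 to 324, at most 129 elsewhere) were high in these pools, and their part in the parotid results was not tested.

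Lower members of the parotid gland came from many families: 6 glutathione transferases, 3 carbonyl and quinone reductases, 2 aldo-keto reductases, 2 sulfotransferases, 2 aldehyde dehydrogenases, and Adh7, Ces1d, Gpx2 and Prdx1. Gpx2 stood at 0.461 to 1.09 (median 0.736) against 6.11 over the other glands (-3.10 ± 0.26, adjusted p = 9.68e-09). Nqo2, a quinone reductase that uses dihydronicotinamide riboside, had 0.892 to 1.12 (-1.44 ± 0.23), and Gstm1, the main mu-class transferase, 4.35 to 5.17 (-1.38 ± 0.16), both below every array of the other glands. Prdx1, the abundant cytosolic peroxiredoxin whose window is printed above, had 24.0 to 43.0 in the parotid pools and 46.5 to 110 on the other 19 arrays with a measured spot (-1.1 ± 0.20, adjusted p = 0.000266). That call rests on the size limit: without female parotid pool A the difference was -0.91, and without male parotid pool A it was -0.89, both under 1 in size with adjusted p of 0.00578 and 0.00615.

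In the sublingual gland 4 members were higher and 12 lower (21.1%, against 11.1% of all probes, 5.86% higher and 5.23% lower). Aldh1a7 led, with 6.36 to 17.5 in the 4 pools (median 10.5) and medians of 4.55 in the submandibular, 2.48 in the meibomian, 0.361 in the parotid and 0.256 in the lacrimal gland. Some groups were dim, and the sublingual level was at least 8.96-fold higher (3.36 ± 0.25, adjusted p = 7.95e-09). Gpx2 (8.18 to 21.6; 1.92 ± 0.26), Txndc17 (13.7 to 21.2; 1.30 ± 0.12) and Aldh18a1 (1.08 ± 0.24) followed. Akr1c18 (at least 4.91-fold), Gsta2 (at least 2.02-fold) and Akr1c20 (at least 2.20-fold) were the lowest. T cell markers (4 measured) summed to 9.70 to 18.2 in these pools and to at most 11.4 elsewhere, and the 3 macrophage markers to 27.1 to 43.1 and at most 28.7. Lyz2 made up most of the macrophage sum (31.0 in females, 27.4 in males). The other macrophage markers were not highest in this gland. Adgre1 was at 0.335 and 0.242, against 0.450 and 0.411 in the parotid gland. Cd14 was at 2.78 and 5.62, against 9.67 in male submandibular pools. The part of T cells and macrophages in the sublingual results was not tested.

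The submandibular gland had 4 members higher and 9 lower (17.1%, against 12.3% of all probes, 5.69% higher and 6.6% lower). Aldh1a7 (at least 3.0-fold; 1.78 ± 0.21), Aldh1a1 (9.16 to 18.4; 1.46 ± 0.17), Nqo2 (2.46 to 8.51; 1.1 ± 0.19) and Akr1b10 (1.02 ± 0.22) were higher. Without male submandibular pool A the Nqo2 difference was 0.99, just under the size limit (adjusted p = 0.00139). Akr1c18 was at least 5.66-fold lower (-3.70 ± 0.40), Gsta3 lower by -2.67 ± 0.24 and Adh7 at least 2.34-fold lower (-2.61 ± 0.23). Aldh2, the mitochondrial acetaldehyde dehydrogenase, was at 2.20 to 4.89 against 16.2 over the other glands (-2.54 ± 0.21), and Aldh3a2, the fatty aldehyde dehydrogenase, at 1.34 against 5.84 (-2.12 ± 0.14). Gpx1, the main cytosolic glutathione peroxidase, was called in no gland: its levels ran from 77.5 in the submandibular through 57.8 (lacrimal), 57.0 (sublingual) and 49.5 (parotid) to 32.4 in the meibomian gland, and the 6 meibomian pools (28.0 to 38.5) lay below every other array while the other 4 glands overlapped.

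Males and females were compared within each gland, at an adjusted p under 0.05. Without the block for pool letters, the lacrimal and submandibular glands alone gave calls among the members. In the lacrimal gland 9 members were called (11.8%, against 5.37% of all probes), with 3 higher and 6 lower in males, against 2.89% and 2.48% of all probes. For each of the 9, every measured pair of the same letter moved the same way. Differences are log2 male minus female with the standard error from the limma fit, over 3 pools per sex.

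Aox3, a molybdenum-containing aldehyde oxidase known mainly from liver, differed most. Females held 5.89, 7.81 and 9.69 in pools A, B and C, and males 0.597, 0.691 and 0.693. All 20 arrays of the other glands lay between 0.332 and 1.02, so the male lacrimal pools were within the range of the other glands and the female pools far above it. The difference was -3.54 ± 0.29 (11.6-fold, adjusted p = 5.78e-08), with -3.50 in the pair of set 1 and -3.30 and -3.81 in the pairs of set 2. It held in each of the alternatives tried. Fmo5, a flavin monooxygenase that inserts oxygen into ketones, went the other way, with 0.311, 0.428 and 0.412 in females and 3.11, 2.02 and 2.14 in males (2.65 ± 0.58, adjusted p = 0.00681). The other glands held 0.0234 to 0.628, so here the female pools lay among the other glands and the male pools above them.

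Aldh3a2, whose loss in people causes the skin and nerve disorder Sjögren-Larsson syndrome, was at 4.98, 8.01 and 5.13 in female and 24.5, 21.1 and 22.7 in male lacrimal pools (1.95 ± 0.25, adjusted p = 2.33e-05). The highest array of the other glands held 6.75. Aldh3b1 was at 5.45, 4.27 and 6.27 in females and 23.0, 10.0 and 19.5 in males (1.65 ± 0.31, adjusted p = 0.00294). Both enzymes oxidise fatty aldehydes, and both were higher in every pair. Aldh3a1, the neighbour of Aldh3a2 on chromosome 11, was not called between the sexes.

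Of the 7 aldo-keto reductases tested 2 were called in the lacrimal gland, and of the 5 carbonyl and quinone reductases 1, all higher in females. Akr1c20 was at 19.0, 7.75 and 12.7 in females and 6.13, 1.4 and 4.05 in males (-1.92 ± 0.40, adjusted p = 0.00488). Akr1b10, a reductase of retinal and other aldehydes, was at 13.2, 6.83 and 5.28 in females and 4.79, 2.46 and 2.02 in males (-1.44 ± 0.37, adjusted p = 0.0248). That call was lost without female pool A (-1.06, adjusted p = 0.138), male pool B (-1.33; 0.0829) or male pool C (-1.19; 0.100). Cbr2 was at 62.4, 32.9 and 49.1 against 34.1, 13.0 and 22.4 (-1.11 ± 0.31, adjusted p = 0.0375), and its call was lost without female lacrimal pool A (-0.90, adjusted p = 0.178) or C (-1.08; 0.100), male lacrimal pool B (-0.75; 0.203) or C (-1.14; 0.0639), or female meibomian pool B (-1.11; 0.0501).

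Adh7 was at 2.74, 2.02 and 2.12 in female and 0.383, 0.965 and 0.431 in male lacrimal pools (-2.07 ± 0.41, adjusted p = 0.00281). The gap was narrowest in the set 1 pair. Gstm1 was at 33.5, 20.6 and 20.3 against 15.3, 13.0 and 13.0 (-0.81 ± 0.24, adjusted p = 0.0484), the call nearest the threshold. Leaving out any 1 of 22 of the 26 arrays ended the Gstm1 call (adjusted p up to 0.246); it held without female lacrimal pool C (-0.94; 0.0422), male meibomian pool A or either male sublingual pool.

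**Figure D4:**
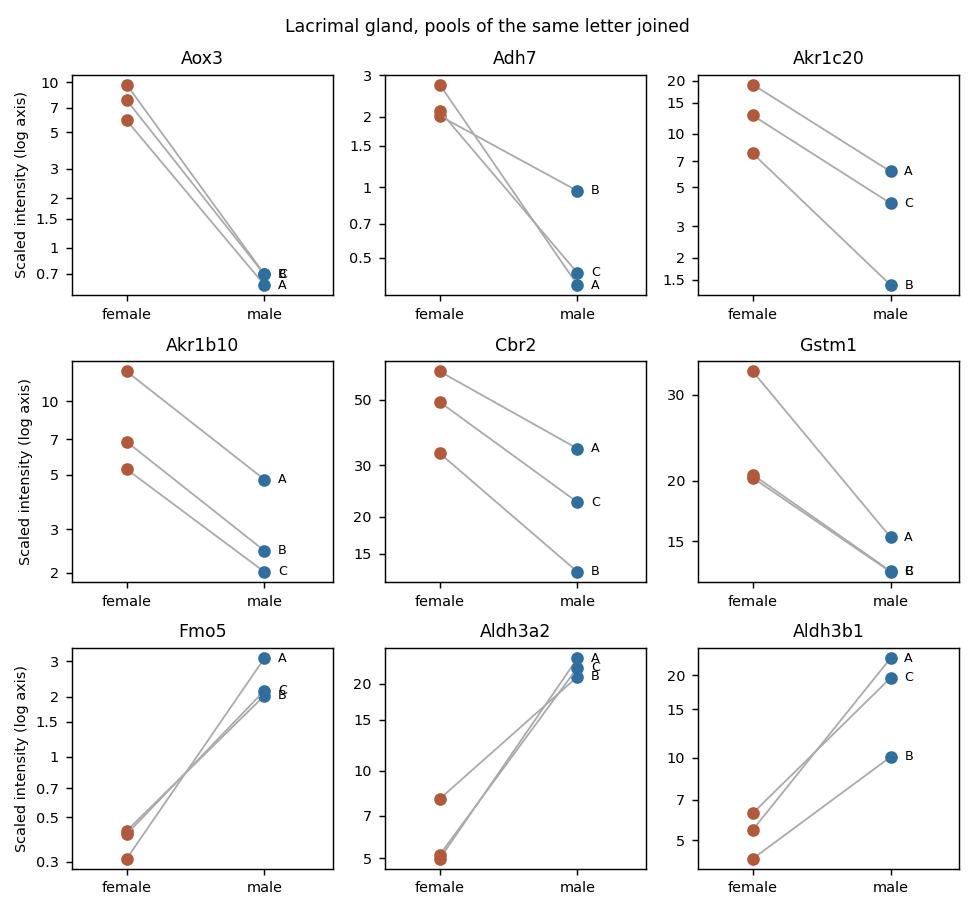
Each plot shows 1 member in the lacrimal gland, with scaled intensity on a log axis for the 3 female pools (brown) and the 3 male pools (blue). Lines join pools of the same letter. All lines fall from female to male for Aox3, Adh7, Akr1c20, Akr1b10, Cbr2 and Gstm1, and all rise for Fmo5, Aldh3a2 and Aldh3b1.

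With the pool letter as a block the lacrimal count was 21 members, 7 higher and 14 lower in males, against 13.5% of all probes in that fit. Added on the higher side were Sult1a1, a phenol sulfotransferase (1.62, 0.651 and 0.960 in females, 6.04, 1.32 and 2.40 in males; 1.41, blocked adjusted p = 0.0005), Aldh9a1 (0.53; 0.0215), Ugt1a6a (0.81; 0.0407) and Akr1b8. The Akr1b8 value in that fit, 1.21, rests on pairs A and B alone, since female pool C had no measured spot; without the block it was 0.23. On the lower side were Akr1c18 (-1.94; blocked adjusted p = 0.0119), Gsta3 (-1.29; 0.0138), Akr7a5 (-0.82; 0.00638), Ces1e (-0.86; 0.00796), Fmo1 (-1.27; 0.0091), Gstk1 (-0.93; 0.0138), Gstm5 (-0.65; 0.0428) and Sult1c1 (-0.93; 0.0252). Without the block none of these 12 passed (adjusted p of 0.0923 for Gsta3 and 0.144 for Akr1c18). Female lacrimal pools also held more adipocyte marker signal (3 markers, summed 10.9 to 21.2, against 3.49 to 11.7 in males), and male pools more B and plasma cell signal (4 markers, 40.3 to 80.9 against 11.8 to 33.9). The adipocyte ranges overlap and the other ranges do not. Cd79a and Jchain made up most of the B and plasma cell signal, with Jchain at 20.7 in males against 2.79 in females. Cd79b was also higher in males (0.648 against 0.478), while Ighm was lower (0.494 against 0.696). Male pools also held more of the meibomian list (4 markers, 7.25 to 10.3 against 3.57 to 4.08), with Scd1 at 7.90 against 2.78, and female pools more Amy1 (106 against 22.9) and Klk1b5 (10.7 against 1.79). The part of these in the lacrimal sex differences was not tested.

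The submandibular gland gave 2 members (2.63%, against 2.58% of all probes), a share at the background, with 1 higher and 1 lower in males against 1.91% and 0.669% of all probes. Gsta2 was at 0.130, 0.0964 and 0.124 in female pools, all dim, and at 1.43, 0.745 and 0.779 in male pools, at least 2.79-fold higher (3.02 ± 0.36 in the fit, adjusted p = 2.65e-05). The 3 pairs differed by 3.46, 2.95 and 2.65. Gstt1, the theta-class transferase known for human null alleles, was at 26.1, 6.43 and 8.28 in females and 4.86, 3.35 and 2.49 in males (-1.70 ± 0.41, adjusted p = 0.0244). Female pool A was far above the rest, and without it the difference was -1.09 (adjusted p = 0.188). The call was also lost without male pool B (-1.68; 0.0894) or male pool C (-1.47; 0.133), and the count of members was then 1.

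With the block 7 submandibular members passed (7.2% of all probes in that fit). The 5 added were Nqo2 (3.39, 2.47 and 2.46 in females, 8.51, 5.39 and 5.03 in males; 1.16, blocked adjusted p = 0.00281), Gpx1 (50.5, 59.5 and 72.5 against 101, 96.6 and 102; 0.73, 0.0266), Sult1a1 (0.98; 0.00913), Gpx7 (0.78; 0.0177) and Akr1c20 (0.0388), lower in males, whose pools were all dim, and at least 1.05-fold higher in females. None passed without the block (0.0803 for Nqo2 and 0.187 for Gpx1). Male submandibular pools also held more smooth muscle and myoepithelial marker signal (5 markers, 117 to 231 against 39.6 to 66.7) and more skeletal muscle signal (10.6 to 14.9 against 1.32 to 1.89). Female pools held more signal of the meibomian list (32.6 to 52.7 against 9.48 to 9.92), nearly all from Scd1. The submandibular list summed to 652 to 864 in males and 369 to 491 in females. Of its markers, Egf was at 207 in males against 14.5 in females, Klk1b24 at 190 against 6.14 and Smr2 at 76.3 against 3.11. The remaining marker, Klk1b5, went the other way (270 against 393). Female pools were higher in Spdef of the sublingual list (12.6 to 13.1 against 4.59 to 4.84) and in T cell markers (2.61 to 3.24 against 1.52 to 1.67). The part of these in the sex differences was not tested.

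No member passed in the sublingual gland (0.207% of all probes, 0.0851% higher and 0.122% lower), the parotid gland (0.0243%) or the meibomian gland (0.0365%). In limma, 3, 1 and 0 members had an unadjusted p under 0.05. With the block 1 member, Aldh2, passed in the sublingual gland (0.438% of all probes in that fit): its pairs were 4.18 and 9.83, and 3.15 and 14.5, female then male (1.72; blocked adjusted p = 0.0197, and 0.272 without the block). The blocked fit called 0 members in the parotid gland (0.0122% of all probes) and in the meibomian gland. Without male parotid pool B, 1 member was called in the parotid gland. With 2 pools per sex in the sublingual and parotid glands, differences had to be larger to pass there.

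Over the mean of the 5 glands 3 members were called (3.95%, against 1.26% of all probes, 0.875% higher and 0.389% lower): Aldh3a2 (0.74 ± 0.12, adjusted p = 0.00224) and Gsta2 (0.73 ± 0.18; 0.0399) higher in males and Aox3 (-0.80 ± 0.14; 0.0039) higher in females. The Gsta2 call was lost when any 1 of 18 of the 26 arrays was left out (adjusted p up to 0.128). With the block the count was 8 (4.01% of all probes), adding Aldh1a1, Aldh2 and Sult1a1 higher in males and Akr1c18 and Akr1c20 lower. The same 3 members as in the main count were those whose sex difference itself differed between glands in the F test (3.95%, against 2.61% of all probes), so their mean over glands describes no single gland.

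For Aox3 the sex difference was -3.54 in the lacrimal gland and between -0.27 and -0.012 in the other 4 (F test adjusted p = 3.44e-05). Gsta2 differed by 3.02 in the submandibular gland and by -0.063 to 0.41 elsewhere in the fit (F test adjusted p = 0.00261). Its female submandibular pools were dim, so the fold there is known only as the bound given above. The sublingual and parotid pools of both sexes were dim as well (0.0746 to 0.195), so a sex difference could not be measured in those glands. Aldh3a2 differed by 1.95 in the lacrimal, 1.18 in the sublingual, 0.77 in the submandibular, -0.19 in the parotid and -0.0044 in the meibomian gland (adjusted p = 0.00597). The Aldh3a2 differences in the sublingual and submandibular glands did not pass on their own (adjusted p = 0.264 and 0.148). With the block the F test called 12 members (15.8%, against 6.97% of all probes), and without male lacrimal pool B or male parotid pool B it called 5.

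**Figure D5:**
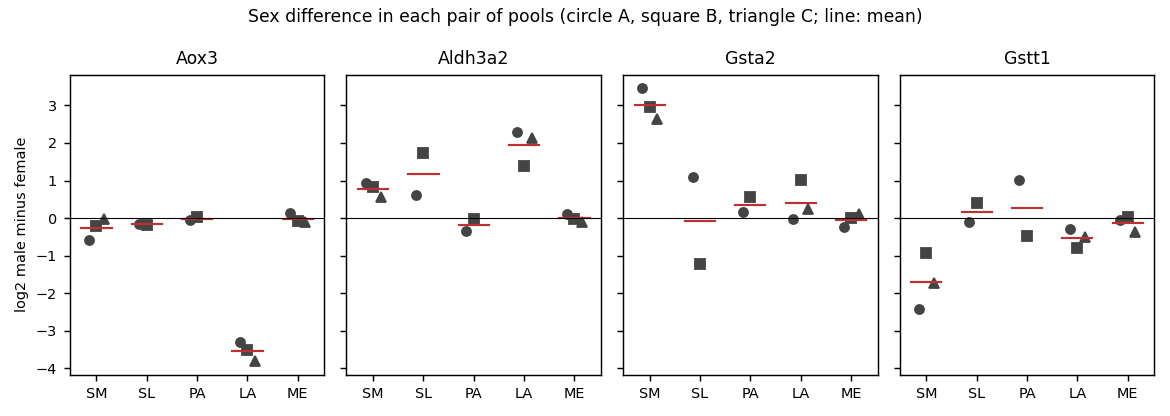
Symbols give log2 male minus female for each pair of pools of the same letter, by gland (SM submandibular, SL sublingual, PA parotid, LA lacrimal, ME meibomian), and red lines their mean, for 4 members. Aox3 departs from 0 in the lacrimal gland (-3.54), Gsta2 in the submandibular gland (3.02), Aldh3a2 most in the lacrimal gland (1.95), and the 3 submandibular pairs of Gstt1 run from -2.43 to -0.94.

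The genes around these enzymes were taken from a list of 72 partners (glutathione synthesis, other antioxidant enzymes, NADPH supply, regulators, other conjugation and export), of which 56 were on the array and 50 probes were tested. In the meibomian gland 16 were higher and 9 lower (50% of 50, against 37.9% of all probes). Me1, the malic enzyme that supplies NADPH, was at 22.4 against 2.26 (3.31 ± 0.19, adjusted p = 4.96e-12), and Ggt6, a gamma-glutamyl transferase, at 4.99 against 0.704 (2.82 ± 0.23). Hnmt, which methylates histamine (0.390 against 3.31; -3.09 ± 0.28), and Nnt, the mitochondrial transhydrogenase (0.980 against 4.59; -2.23 ± 0.26), were lowest. Gsr, which regenerates glutathione, was also lower (1.21 against 3.23; -1.42 ± 0.16) while Gclm, a subunit of its first synthetic enzyme, was higher (8.15 against 2.93; 1.48 ± 0.16).

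In the lacrimal gland 8 partner probes were higher and 6 lower (28% of 50, against 20.2% of all probes). Papss2, which makes the sulfate donor that sulfotransferases use, was at least 27.9-fold higher (8.15 against 0.215; 5.25 ± 0.25, adjusted p = 1.1e-12), and Abcc2, an exporter of conjugates, at least 2.54-fold. Ggt6 (-2.08) and the metallothionein Mt2 (-1.81) were lowest. The parotid gland had 4 higher and 8 lower (24%, against 17.1%), with Ggt6 (2.03 ± 0.27) and Sod3 (at least 1.87-fold) highest and Hmox1 (-1.4) lowest, beside a dim probe of Abcc1. The sublingual gland had 2 of each (8%, against 11.1%, so no more than the background), with Ugp2 (1.82) and Sod3 (at least 1.89-fold) higher and Me1 (-1.95) and Anpep (-1.02) lower. The submandibular gland had 3 higher and 7 lower (20%, against 12.3%), with Arnt (2.02) and Nnt (1.39) highest and Ggt6 (-2.25, with 2 of the 6 submandibular arrays at or above the 30th percentile) and Papss2 (at least 2.19-fold below the mean of the other glands, which holds its lacrimal level of 8.15) lowest.

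Between the sexes 2 partner probes were called in the submandibular and 4 in the lacrimal gland (4% and 8% of 50, against 2.58% and 5.37% of all probes), shares near the background. In the submandibular gland males were higher in Gclc, the catalytic subunit of glutathione synthesis (8.60 against 3.12; 1.46 ± 0.27, adjusted p = 0.00264), and in Arnt, the partner of the aryl hydrocarbon receptor (10.9 against 2.89; 1.92 ± 0.26). In the lacrimal gland males were higher in Abcc2 (3.25 against 0.208, a value for which 1 of the 3 female pools reached the 30th percentile; 3.96 ± 0.60, adjusted p = 0.000155) and in Bach1, a repressor that competes with NRF2 (4.64 against 0.843; 2.46 ± 0.36). Females were higher in the exporter Abcb1a (2.59 against 0.349, with 1 of the 3 male pools at that percentile; -2.89 ± 0.60) and in Inmt, a methyltransferase of indoles (5.01 against 1.35; -1.90 ± 0.43). No partner was called between the sexes in the sublingual, parotid or meibomian gland or over the mean of the 5.

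The 19 members left out by the filter were Ugt1a2, Ugt2a3, Ugt2b1, Ugt2b37, Ugt8a, Sult1b1, Sult1c2, Sult2a2, Sult3a1, Sult4a1, Adh4, Aldh1l1, Aox1, Akr1c21, Akr1cl, Ces1g, Gstm6, Gstm7 and Txndc8. They include 5 of the 6 glucuronosyltransferase probes and 5 of the 10 sulfotransferase probes. A low value on this array is no measure of absence, since probes differ in brightness. A total of 11 were below the 30th percentile in every group; Gstm7 was below it in only 4 of the 10. A further 24 member values were missing spots, 10 of them of Sult2b1, 4 of Aldh3b1 and 3 each of Prdx1 and Akr1b10.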

How the data were processed

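RNA pools of 5 glands in both sexes were read on 26 arrays. The authors deposited 1 linear intensity per probe and array, scaled within the array. For the platform, scanner and software, the sources used here gave nothing. The value -1 (0.821% of cells, 24 of the members) was read as a missing spot and left out. Values under 0.0234, the 1st percentile of the positive values, were raised to it, and log2 was taken without further normalization (array medians span 0.0403). Probes reaching the 30th percentile of their array on every measured array of at least 1 group were kept (8227 of 10500). The fit, in limma 3.58.1 (R 4.3.3), took all 26 arrays and a mean for each of 10 groups, with 16 residual degrees of freedom. Adjustment was by Benjamini-Hochberg over all probes kept, within each comparison, at 0.05. Levels are geometric means. A group below the 30th percentile on all its arrays is dim, and folds against it are bounds. Precision is limited by the number of arrays. The script was tested on simulated data.

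The labels do not say what a pool letter marks, so the pairing of the sexes by letter is inferred from the values. Over 7555 probes the 9 same-letter pairs of glands with 3 pools correlated at 0.441 to 0.816 and other letters at -0.695 to 0.491. The standard errors and p of the gland comparisons come from the fit without a block, which takes the arrays of a group as independent of all others. Pools are separate animals per the labels. Members are named if called between the sexes, among the 6 highest or 3 lowest of a gland whose arrays do not overlap (or the largest calls), the 2 highest levels of a gland, or the smallest F-test p of a family. Partners are named if called between the sexes or among the 2 largest calls per gland and direction; Gsr, Gclm, Abcc2 in the lacrimal gland and the other members given with values were chosen after their values were seen. The members and lists were chosen with earlier results of these data known. Alternatives were the normalization, filter, floor, missing code, array weights, pools left out, blocks and, chosen after seeing the data, the array sets.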

Additional observations from a re-analysis of the deposited data

Results flagged for a closer look

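The sex difference of 3 members differed between glands by the moderated F test of limma over all 26 arrays. For Aox3 the adjusted p was 3.44e-05: male minus female was -3.54 (log2) in the lacrimal gland, in 3 of 3 pairs, and no other gland passed. For Gsta2 it was 0.00261, with 3.02 in the fit in the submandibular gland (3 of 3 pairs), where the female pools were dim, and -0.063 to 0.41 in the other glands. The sublingual and parotid pools of both sexes were dim for Gsta2. For Aldh3a2 it was 0.00597, with 1.95 in the lacrimal gland (3 of 3 pairs) and -0.19 in the parotid gland.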

How the results depend on the processing

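The sex counts moved with the setting. In the submandibular gland 2 members became 7 with the replicate block for pool pairs, 4 with quantile normalization, 6 with array weights and 1 with pools B and C only, with the arrays of the gland alone or with array set 2 only. In the lacrimal gland 9 became 21 with the block, 4 with array weights, 5 with pools B and C only and 3 with the arrays of the gland alone. The sublingual count was 0, and 1 with the block. Over the mean of the 5 glands 3 became 8 with the block, 0 with pools B and C only and 1 in array set 2. The F test of the sex difference called 3, and 12 with the block, 5 with a floor at the 10th percentile and 6 with array weights. The parotid gland count of 24 was 14 with pools B and C only. Leaving out 1 pool at a time gave 1 to 3 members in the submandibular gland, 6 to 12 in the lacrimal, 0 to 1 in the parotid and 2 to 3 over the mean of the 5, and 3 to 5 in the F test. The gland counts then ran from 11 to 14 (submandibular), 15 to 18 (sublingual), 20 to 25 (parotid), 22 to 26 (lacrimal) and 32 to 35 (meibomian). With the missing code raised to the floor Prdx1 in the parotid gland reversed to 0.34 (adjusted p = 0.919), since its 3 missing spots lie in other glands and then count as low. Among the single sex calls, Aox3 and Aldh3a2 in the lacrimal gland and Gsta2 in the submandibular gland passed under every alternative run, and each of the other 8 calls within a gland was lost under at least 1. The block changed the direction of no call.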

Other observations

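Of the 94 member genes, 40 lie in 17 runs of neighbours with at most 2 genes between them (RefSeq, assembly GRCm38.p6). Neighbours had their highest level in the same gland in some runs and in different glands in others. Some genes of the runs were left out by the filter. How often genes that are not neighbours share their highest gland was not computed. Aldh1a1 was highest in the submandibular gland and its neighbour Aldh1a7 in the sublingual gland, while both were lowest in the lacrimal gland. Aldh3a1 was highest in the meibomian gland and Aldh3a2 in the lacrimal gland. Cbr1 was highest in the lacrimal gland and Cbr3 in the meibomian gland, and both were lowest in the parotid gland. Gstt1 and Gstt2 were both highest in the lacrimal and lowest in the meibomian gland. Akr1b8 and Akr1b10 were both highest in the submandibular gland, with the sublingual gland next. These are orders of levels, given without a test, and the arrays of different glands can overlap. Akr1b8 had 1.12 to 1.91 in submandibular and 1.19 to 1.76 in sublingual pools. Cbr1 had 1.70 to 4.74 in lacrimal and 2.57 to 3.13 in sublingual pools. Akr1b10 had no measured spot in the sublingual B pools of either sex.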
